A study of Bos taurus with 8 samples.

Results

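The genes described here are those that the array's probe-to-gene table names as proteasome genes (symbols PSMA to PSMG with a number) or as UBE2 genes, the naming family of the ubiquitin-conjugating enzymes. They were chosen by name alone: 78 of the 15229 genes with a symbol on the array, 47 of them proteasome genes and 31 UBE2 genes, read by 135 of the 43794 expression probes. The samples were Holstein blastocysts produced in vitro from oocytes of slaughterhouse ovaries. All embryos were cultured alike to the 8 to 16 cell stage on day 3, after which 1 group received lipids extracted from serum until day 7 and the control group received none. Collection took place 170 hours after fertilization, and pools of 10 blastocysts were made, which gave 4 lipid pools and 4 control pools. Each lipid pool was hybridised against a control pool on 2 two-colour arrays with exchanged dyes, 1 array on each of 2 slides, and the 2 arrays were averaged to 1 pool pair.

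Proteins are marked for destruction by a chain of enzymes: an activating enzyme (E1) passes ubiquitin to a conjugating enzyme (E2), which with a ligase (E3) places it on the target. The 26S proteasome then unfolds and cuts the target: its 19S cap recognises ubiquitin and feeds the chain, through a ring of ATPases, into the 20S barrel, whose inner beta rings hold the cutting sites. In early embryos this system clears maternal proteins and drives cell cycle transitions, and an interferon-inducible variant, the immunoproteasome, supplies peptides for antigen presentation.

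Values below are log2 ratios of lipid over control, as a mean ± SD over n = 4 pool pairs, or for a named pool pair the mean of its 2 arrays. Each gene is read through its brightest probe, which gave signal above the negative control spots on at least 4 of the 8 arrays for 46 of the 47 proteasome genes and 29 of the 31 UBE2 genes (76.6% of all genes with a symbol). The 3 others were not well above background: PSMB8, a catalytic subunit of the immunoproteasome, passed the limit on 1 array in each channel, UBE2L6, the E2 of the interferon-induced modifier ISG15, on none, and UBE2O, a large enzyme with both E2 and E3 activity, on 1 array in the control channel and 2 in the lipid channel. The rule also took in 2 names that are neither, PSMC3IP, a recombination factor, and UBE2CBP, which RefSeq lists as the E3 ligase UBE3D. The name UBE2D3P is a RefSeq synonym of UBE2D3. The tissue was checked against lineage markers, and all 17 on the array were measured. Of these, 10 were above the limit in both channels on all 8 arrays. Among the 10 were POU5F1, of the pluripotent cells, KRT8 and KRT18, of epithelium, and IFNT, the interferon of the bovine trophoblast. For 3 markers the control channel exceeded the limit on fewer than 4 arrays. CDX2, a trophoblast factor, was above it on 2 arrays in the control channel and 4 in the lipid channel. SALL4 was above it on 2 and 5 arrays, and SOX17 on 1 and 4. The control channel of SOX2, ELF5 and TEAD4 exceeded the limit on 5 arrays, and that of GATA3 on 7.

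In control blastocysts the machinery of protein breakdown was widely detected. The control channel exceeded the limit on all 8 arrays for 34 of the 46 measured proteasome genes and 18 of the 29 measured UBE2 genes (30.5% of all measured genes). Array 1 of slide 87 had a raised limit, and on at least 7 arrays it did so for 41 of 46, 24 of 29 and 60.2% of all measured genes. It did so on fewer than 4 arrays for 1 member of each family (20.5% of all measured genes): PSMD3, a subunit of the 19S lid, on 3 arrays, and UBE2J2, an E2 of the endoplasmic reticulum, on 2. All 7 ordinary subunits of the 20S alpha ring, all 7 of the beta ring and all 6 ATPases were above the limit on every array in both channels. The immunoproteasome subunits passed on fewer arrays: the control channel of PSMB9 exceeded the limit on 6 arrays and that of PSMB10 on 5. PSMA8, known in mice as a meiotic alpha subunit, and PSMB11, known in mice as the beta subunit of the thymus, each exceeded it on 4.

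No member passed the threshold between lipid and control. In the limma fit over 28844 probes, 0 probes passed an adjusted p of 0.05 (0.00%; 4.46% had an unadjusted p under 0.05), and so 0 of the 46 proteasome genes and 0 of the 29 UBE2 genes (0.00% of 11669 genes). The lowest adjusted p of any probe was 0.996. At an unadjusted p under 0.05 stood 4 proteasome genes, 1 higher and 3 lower with lipid, and 1 UBE2 gene, which was higher. The 3 lower ones include PSMC3IP, which is no subunit. Over all genes the share under that p was 5.38%, made of 2.74% higher and 2.64% lower. No member reached a mean difference of 1.5-fold in either direction, against 0.797% of all genes. Because the pools are bulk samples, fewer cells of a type and less RNA per cell cannot be told apart in any of these ratios.

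Both families were centred near 0. Of the proteasome genes 25 had a mean ratio above 0 and 21 below, with a median of 0.02 and a range from -0.34 to 0.39. Of the UBE2 genes 17 had a mean ratio above 0 and 12 below, with a median of 0.02 and a range from -0.22 to 0.26. Over all genes 49.9% were above 0, and the median was -0.00. The same sign in all 4 pool pairs (11.1% of all genes) was found for 7 proteasome genes, 3 higher and 4 lower, and for 1 UBE2 gene, which was higher. PSMC3IP, which is no subunit, is among the 4 lower ones. The shares of all genes were 5.36% higher and 5.69% lower.

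**Figure D1:**
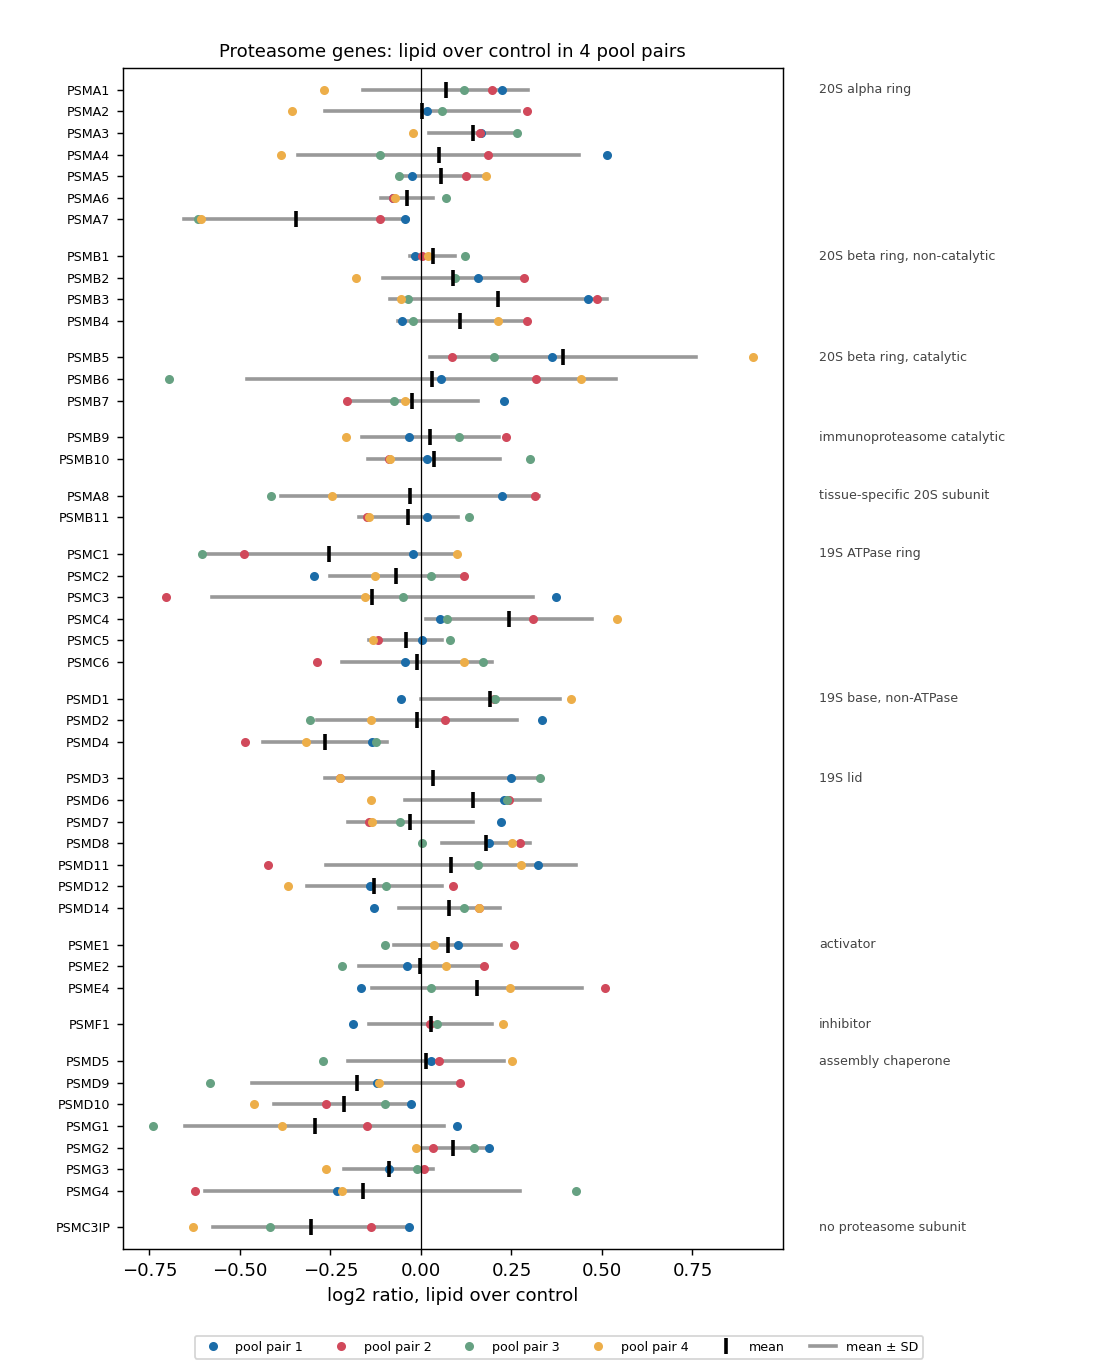
Log2 ratio of lipid over control (horizontal axis) for the 46 measured proteasome genes, grouped by role. Points are the 4 pool pairs, black marks the mean and grey bars the mean ± SD; most bars cross 0, and means run from -0.34 for PSMA7 to 0.39 for PSMB5.

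The 20S barrel held both ends of the range. PSMB5, the beta subunit with chymotrypsin-like activity and the main target of proteasome inhibitors, had 0.36, 0.09, 0.20 and 0.92 in pool pairs 1 to 4. All 4 were above 0, but pool pair 4 was far above the rest, and the signal of the control pools (log2 intensity 11.26 to 11.82) overlapped that of the lipid pools (11.71 to 12.17). The mean was 0.39 ± 0.37, or 1.31-fold, with a 95% limma interval from 0.01 to 0.77 and an adjusted p of 0.996. The other catalytic subunits had means near 0. PSMB6, the caspase-like subunit, had 0.05, 0.32, -0.69 and 0.44, so that pool pair 3 lay on the other side of 0, and its mean was 0.03 ± 0.51. PSMB7, the trypsin-like subunit, had -0.02 ± 0.18. The structural beta subunits PSMB1, PSMB2, PSMB3 and PSMB4 all had means above 0, from 0.03 to 0.21, and each had at least 1 pool pair below 0.

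PSMA7, an alpha ring subunit, had the lowest mean of either family. Its ratios were -0.04, -0.11, -0.62 and -0.61, all below 0 and close to 0 in pool pairs 1 and 2. Its log2 signal was 12.58, 12.68, 13.16 and 12.95 in control pools 1 to 4 and 12.54, 12.57, 12.55 and 12.34 in the lipid pools. The lipid pools spanned a narrower range than the control pools. It was the sole member whose lipid and control pools did not overlap (0.686% of all genes), by a narrow margin, with the lowest control pool at 12.58 and the highest lipid pool at 12.57. Its mean was -0.34 ± 0.31, or 0.787 of control, with a 95% limma interval from -0.68 to -0.01 and an adjusted p of 0.996. A second, dimmer PSMA7 probe had -0.13 ± 0.10. The other alpha subunits ran from -0.04 (PSMA6) to 0.14 ± 0.12 (PSMA3, higher in 3 of 4 pool pairs), 5 of them above 0.

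In the 19S base, which binds and unfolds the substrate, PSMD4 had the smallest p of all members by their brightest probes. PSMD4 is a ubiquitin receptor, and its ratios were -0.14, -0.49, -0.12 and -0.32. All 4 pool pairs were below 0, with control signal of 10.28 to 10.98 and lipid signal of 10.02 to 10.84, which overlap. The mean was -0.27 ± 0.17, or 0.832 of control, with a 95% limma interval from -0.49 to -0.04 and an adjusted p of 0.996, and a second probe had -0.22 ± 0.29. Of the scaffold subunits of the base, PSMD1 had 0.19 ± 0.19 and PSMD2 -0.01 ± 0.28. Of the 6 ATPases 5 had means below 0, among them PSMC1 at -0.25 ± 0.34. PSMC4 stood on the other side at 0.24 ± 0.23, with 0.05, 0.31, 0.07 and 0.54 in the pool pairs and all 4 above 0, but its dimmer probe had -0.04. PSMC3 had -0.13 ± 0.44, with -0.71 in pool pair 2 and 0.37 in pool pair 1.

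In the lid, which removes ubiquitin from the substrate, 5 of 7 subunits had means above 0. PSMD8 had 0.19, 0.27, 0.00 and 0.25, all above 0, with a mean of 0.18 ± 0.12. Its arrays on slides 87 and 88 differed in sign in pool pair 3 (0.15 and -0.14) and pool pair 4 (0.68 and -0.17). PSMD14, the deubiquitinating subunit, had 0.08 ± 0.14, and PSMD11, another lid subunit, 0.08 ± 0.34. The assembly chaperones, which build the barrel and the base and are not part of the finished particle, had a median of -0.16, with 5 of 7 below 0. PSMD10, a chaperone of the base also known as gankyrin, had -0.03, -0.26, -0.10 and -0.46, all below 0, with a mean of -0.21 ± 0.19. PSMG1, a chaperone of the alpha ring, had 0.10, -0.15, -0.74 and -0.38 and a mean of -0.29 ± 0.36, and its 3 dimmer probes also had means below 0, from -0.14 to -0.03. PSMG2, its partner, had 0.09 ± 0.09. PSMC3IP, which is no subunit, had -0.03, -0.14, -0.42 and -0.63, all below 0, and a mean of -0.30 ± 0.27. Across the 30 constitutive subunits of the 26S particle 18 had means above 0 and 12 below, with a median of 0.03.

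The subunits that interferon induces were given a group of their own. Of 6 such members, PSMB9 and PSMB10 of the immunoproteasome and the activator subunits PSME1 and PSME2 were measured, and their median was 0.03. PSMB9 had 0.03 ± 0.19, PSMB10 0.04 ± 0.18, PSME1 0.07 ± 0.15 and PSME2 -0.00 ± 0.17. In pool pair 2 the median of the 4 was 0.21, against -0.02 to 0.00 in the other pool pairs: PSME1 had 0.26 there, PSMB9 0.23 and PSME2 0.17, and PSMB10 had -0.09. The list of 17 measured interferon response genes had its highest median in the same pool pair, at 0.40, against -0.02, 0.07 and 0.16 in pool pairs 1, 3 and 4. The number above 0 was not highest there: it was 7, 11, 13 and 15 of 17 in pool pairs 1 to 4. By their means 14 of the 17 were above 0 and 3 below, with a median of 0.19. A list of genes used as markers of cumulus and granulosa cells, the cells that surround the oocyte, also had its highest median in pool pair 2, at 0.74. There, 13 of the 15 measured were above 0, the highest being LUM at 3.70, VIM at 2.96, INHBA at 1.5 and STAR at 1.34, while FSHR had 0.02, GREM1 0.05, HAS2 -0.18 and CYP19A1 -0.24. Their summed signal was 42338 in lipid pool 2, against 8777 to 12996 in the other lipid pools and 8263 to 16821 in the control pools. TNFAIP6, VCAN and AMH of that list were not well above background. COL1A2 had 1.12 in pool pair 2. Members of the list differed, so these values do not name a cell type. The part of such cells in the values of pool pair 2 was not tested. The remaining activator, PSME4, had 0.15 ± 0.29, and the inhibitor PSMF1 0.03 ± 0.17.

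**Figure D2:**
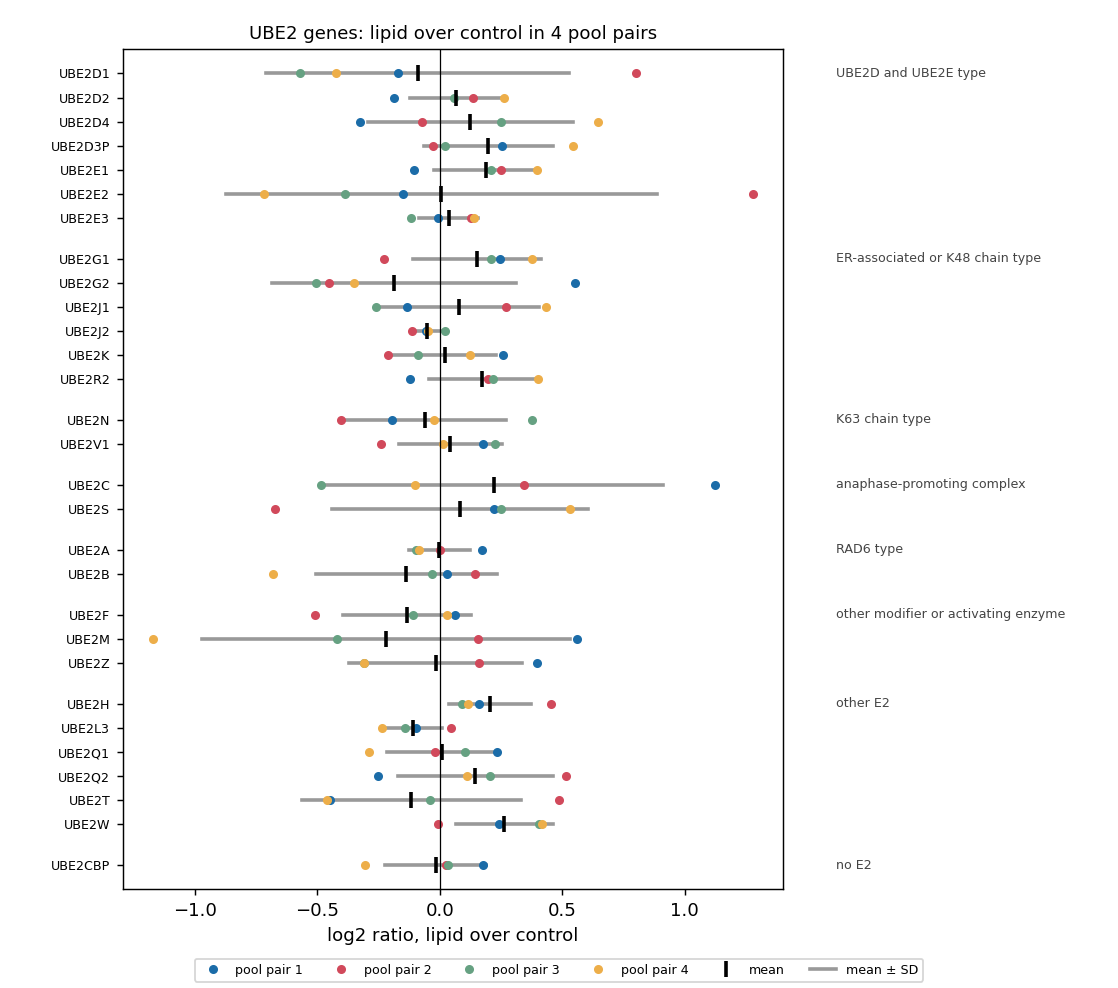
Log2 ratio of lipid over control (horizontal axis) for the 29 measured UBE2 genes, grouped by role. Points are the 4 pool pairs, black marks the mean and grey bars the mean ± SD; single points reach 1.28 (UBE2E2, pool pair 2) and -1.17 (UBE2M, pool pair 4) while means stay between -0.22 and 0.26.

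Among the UBE2 genes, UBE2W had the highest mean. This E2 attaches ubiquitin to the amino terminus of proteins, and its ratios were 0.24, -0.01, 0.40 and 0.42, close to 0 in pool pair 2 and above it in the 3 others. Its control pools (10.31 to 11.09) and lipid pools (10.55 to 11.48) overlapped. The mean was 0.26 ± 0.20, or 1.20-fold, with a 95% limma interval from 0.02 to 0.51 and an adjusted p of 0.996. UBE2H, the E2 of the CTLH ligase complex, had 0.16, 0.45, 0.09 and 0.11. It was the UBE2 gene higher in all 4 pool pairs, and its mean of 0.20 ± 0.17 had a 95% limma interval from -0.02 to 0.43.

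The E2s of the UBE2D and UBE2E type work with many ligases. Of the 7 measured, 6 had means above 0, with a median of 0.07. UBE2D3P had 0.20 ± 0.26, UBE2E1 0.19 ± 0.21, UBE2D2 0.07 ± 0.19 and UBE2E3 0.04 ± 0.12. UBE2D1 and UBE2E2 differed most between pool pairs. UBE2E2 had -0.15, 1.28, -0.39 and -0.72, so that pool pair 2 alone was above 0, and both of its arrays were high there (1.01 and 1.55). UBE2D1 had -0.17, 0.80, -0.57 and -0.42, again with pool pair 2 alone above 0 and both arrays high (0.74 and 0.87). Their means were 0.01 ± 0.88 and -0.09 ± 0.62. Pool pair 2 is the one in which the cumulus and granulosa list had its highest median. The relation of that list to these 2 genes was not tested.

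The E2s of the endoplasmic reticulum and of K48-linked chains, the chains that the proteasome reads, had a median of 0.05, with 4 of 6 above 0. UBE2R2, a partner of cullin ligases, had 0.17 ± 0.22, UBE2G1 0.15 ± 0.26, UBE2J1 0.08 ± 0.33 and UBE2K 0.02 ± 0.21. UBE2G2, which acts in the breakdown of misfolded proteins of the endoplasmic reticulum, had 0.55 in pool pair 1 and -0.45, -0.50 and -0.35 in the others, and a mean of -0.19 ± 0.50. Of the pair that builds K63-linked signalling chains, UBE2N had -0.06 ± 0.33 and UBE2V1 0.04 ± 0.21. Of the RAD6 type, which modify histones and act in DNA damage tolerance, UBE2A had -0.00 ± 0.12 and UBE2B -0.14 ± 0.37. UBE2L3, a partner of ligases that carry ubiquitin themselves, had -0.11 ± 0.12, UBE2T of the Fanconi anaemia pathway -0.12 ± 0.45 and UBE2Q2 0.15 ± 0.32.

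UBE2C and UBE2S serve the anaphase-promoting complex, the ligase that ends mitosis. UBE2C had 1.12, 0.34, -0.48 and -0.10 in pool pairs 1 to 4 and a mean of 0.22 ± 0.69. The brightest probe of UBE2S had 0.22, -0.67, 0.25 and 0.53 and a mean of 0.08 ± 0.52, with a sign opposite to that of UBE2C in pool pairs 2, 3 and 4. Its dimmer probes all had means below 0, from -0.27 to -0.05, and were below 0 in pool pair 2. In pool pairs 3 and 4 their signs differed: the second brightest had -0.31 and 0.02, and the third 0.18 and -0.11. UBE2M, the E2 of the modifier NEDD8 that activates cullin ligases, had 0.56, 0.16, -0.42 and -1.17 and a mean of -0.22 ± 0.75. UBE2F, the second NEDD8 enzyme, had -0.13 ± 0.26. UBE2Z, which takes ubiquitin from the activating enzyme UBA6, had 0.40, 0.16, -0.31 and -0.31.

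The values of UBE2C, UBE2M and UBE2Z in single pool pairs rest mainly on slide 88. UBE2C had 0.51, -0.10, 0.19 and 0.46 on arrays 1 to 4 of slide 87 and 1.74, 0.79, -1.15 and -0.66 on those of slide 88. UBE2M had 0.13, -0.17, -0.05 and -0.34 on slide 87 and 0.99, 0.48, -0.79 and -2.0 on slide 88. Other members were also uneven between slides. In pool pair 3, PSMB6 had -0.19 on slide 87 and -1.19 on slide 88, and PSMG1 -0.29 and -1.19. In pool pair 4, PSMB6 had 0.87 on slide 87 and 0.02 on slide 88. On slide 88, arrays 1 and 2 carried the lipid pool in Cy3 and arrays 3 and 4 carried it in Cy5. Arrays 1 and 2 of slide 88 were above 0 and arrays 3 and 4 below for UBE2C, UBE2M and UBE2Z. The same held for UBE2E2 (0.25, 1.55, -0.79 and -1.18 on slide 88), among others. A dye effect that differs between the slides and a difference between these pool pairs cannot be told apart there. The mean over the 4 pool pairs holds both orientations equally often on each slide.

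**Figure D3:**
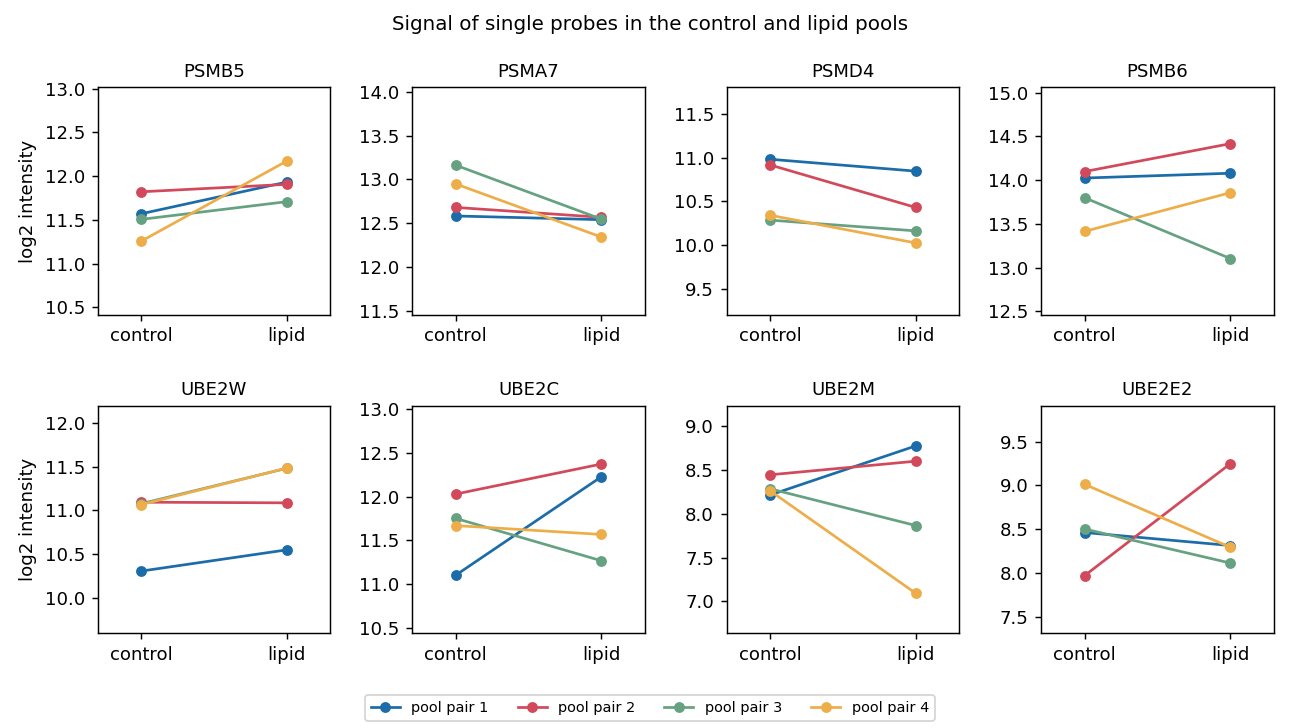
Log2 intensity after normalization (vertical axis, each panel spanning the same range) in the control and lipid pools, for 8 members chosen after their values were seen; each line joins the 2 pools of a pool pair. All lines rise for PSMB5 and all fall for PSMA7 and PSMD4, while lines of both directions occur for PSMB6, UBE2C, UBE2M and UBE2E2. For UBE2W the line of pool pair 2 is close to level and the others rise.

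Values of single pool pairs ran from -0.74 to 0.92 for proteasome genes and from -1.17 to 1.28 for UBE2 genes, and are compared here as a description with no test. A ratio of 2-fold or more in either direction occurred in 3 of 116 values of UBE2 genes and in 0 of 184 values of proteasome genes, against 621 of 46676 over all genes. A ratio of at least 0.5 in either direction made up 13.8% of the values of UBE2 genes, 7.07% of those of proteasome genes and 11.5% over all genes. The median SD between pool pairs was 0.26 for UBE2 genes, 0.19 for proteasome genes and 0.23 for all genes. Both signs occurred over the pool pairs in 28 of the 29 UBE2 genes and 39 of the 46 proteasome genes, against 10379 of 11669 over all genes. The 2 arrays of a pool pair gave the same sign in 74.1% of cases for UBE2 genes, 62.5% for proteasome genes and 57.1% for all genes.

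Set side by side, the medians of both families stayed near 0. The median of the proteasome genes was 0.02, 0.08, 0.02 and -0.10 in pool pairs 1 to 4, and that of the UBE2 genes 0.06, 0.05, 0.02 and 0.01. The difference of the medians, proteasome minus UBE2, was -0.04, 0.03, -0.00 and -0.11, with an SD of 0.06 over the pool pairs, and -0.00 for the medians of the 4-pair means. It was above 0 in pool pair 2 and below 0 in the others. Pool pair 4 was the one in which most proteasome genes were lower: 17 of 46 were above 0 there, against 24 to 29 in the others, while UBE2 genes had 15 to 17 of 29 above 0 in each. By slide the proteasome median was 0.04 on slide 87 and -0.00 on slide 88, and the UBE2 median 0.03 and 0.07. These are descriptions with no test, since genes are not replicates.

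**Figure D4:**
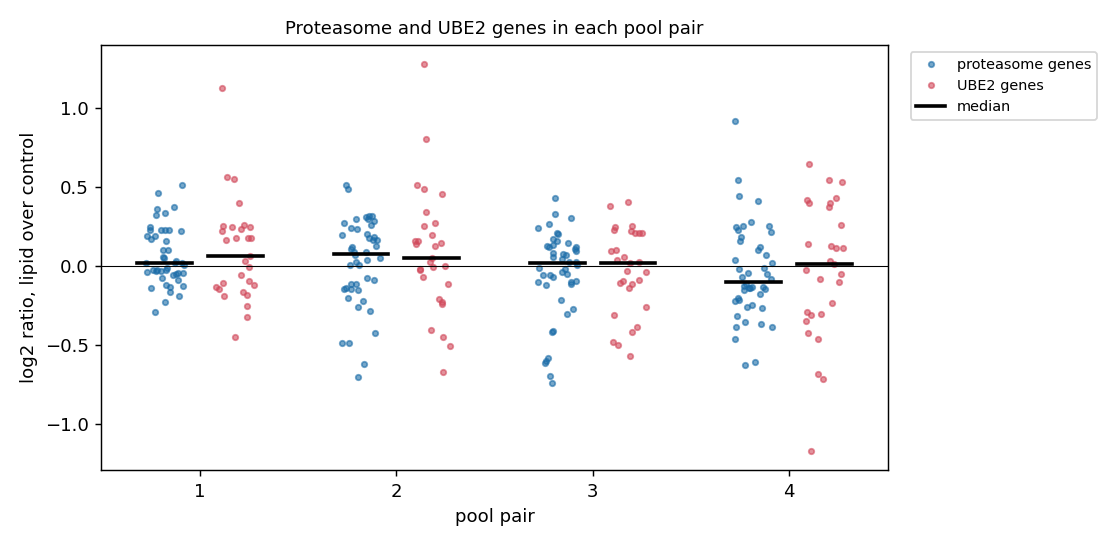
Log2 ratio of lipid over control (vertical axis) of the 46 proteasome and 29 UBE2 genes in each of the 4 pool pairs; points are genes and black bars medians. All medians lie between -0.10 and 0.08, and the UBE2 points reach further from 0.

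The limma intervals give what this number of pools could resolve. For 40 of the 46 proteasome genes and 23 of the 29 UBE2 genes the whole 95% interval lay within 1.5-fold of control, and for all 46 and all 29 within 2-fold. The share of all genes was not counted, so these counts do not set the members apart. Each interval is for a single gene, with no adjustment for the number of genes. The interval was narrowest for UBE2J2 among the UBE2 genes, from -0.21 to 0.11, and widest for UBE2E2, from -0.84 to 0.86. UBE2J2 was above the limit on only 2 arrays in the control channel and 4 in the lipid channel, so its narrow interval rests on little signal.

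Levels also differed between pools within each group. Arrays 1 and 2 of each slide carried the dyes the opposite way round to arrays 3 and 4, which makes pools 1 and 2 one layout and pools 3 and 4 the other. UBE2L3 had a log2 signal of 9.92, 10.65, 9.11 and 8.56 in control pools 1 to 4 and of 9.82, 10.70, 8.97 and 8.33 in the lipid pools. PSMC1 had 10.09, 10.12, 9.09 and 8.98 in the control pools and 10.06, 9.63, 8.49 and 9.08 in the lipid pools. PSMD6, a lid subunit, went the other way, with 9.64, 10.10, 11.03 and 10.88 in the control pools and 9.87, 10.34, 11.26 and 10.74 in the lipid pools. For each of these 3 genes, pools 1 and 2 lay apart from pools 3 and 4 in both groups, and they were chosen for that. The difference had the same sign in both groups for 31 of 46 proteasome genes, 23 of 29 UBE2 genes and 8034 of 11669 genes over all. It had opposite signs in control and lipid pools for UBE2E2 (-0.54 and 0.58), UBE2C (-0.14 and 0.88), PSMA4 (-0.24 and 0.36) and PSMG1 (-0.44 and 0.10), among others. The median size of that difference was 0.28 in control and 0.30 in lipid pools for proteasome genes and 0.37 and 0.38 for UBE2 genes, against 0.23 and 0.22 for all genes. A control and a lipid pool of a pair share their arrays, so pool, array and dye layout cannot be told apart in these levels, and the comparison was added after the values were seen.

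Several members were read by more than 1 probe. In 14 of 30 such members the probes had both signs, and in 0 of these did the probes differ by 0.5 or more. The share of all genes was not counted. Most means were close to 0, so the second count says little about how well probes agree. The 5 kept probes of UBE2S ran from -0.27 to 0.08, and the 6 of PSMA2 from -0.09 to 0.04. The 3 probes of PSMB4, a structural beta subunit, were all above 0, at 0.11, 0.24 and 0.18. The 2 of PSMC3 were both below 0, at -0.13 and -0.47. The 2 of PSMG4, a further assembly chaperone, were -0.16 and -0.30. Its dimmer probe was below 0 in all 4 pool pairs, with an unadjusted limma p of 0.010 and an adjusted p of 0.996. That unadjusted p is below the 0.028 of the brightest PSMD4 probe.

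Other genes of the pathway were centred near 0 too. Of 52 measured genes of ubiquitin supply, activation, ligases, shuttles and deubiquitinases, 28 had means above 0 and 24 below, with a median of 0.01. None passed the adjusted threshold, and 5 had an unadjusted p under 0.05 (5.38% of all genes). UBR4, an E3 that reads amino-terminal degradation signals, had -0.18, -0.43, -0.52 and -0.72, all below 0, with a mean of -0.46 ± 0.22. ANAPC1, the scaffold of the anaphase-promoting complex, had 0.16, 0.38, 0.36 and 0.48, all above 0, with a mean of 0.34 ± 0.14. NPLOC4, a cofactor of the unfolding ATPase VCP, had -0.21 ± 0.08, the chaperone-linked ligase STUB1 -0.37 ± 0.32, the cullin CUL2 0.32 ± 0.26 and the deubiquitinase UCHL1 0.27 ± 0.27. Of 26 measured genes of ubiquitin-like modifiers, 17 had means above 0 and 9 below, with a median of 0.03 and 0 at an unadjusted p under 0.05. Among them the SUMO activating subunit SAE1 had -0.26 ± 0.23, the modifier URM1 -0.48 ± 0.56, ISG15 0.25 ± 0.26, its activating enzyme UBA7 0.46 ± 0.64, the SUMO ligase PIAS1 0.30 ± 0.36 and the autophagy modifier ATG12 0.24 ± 0.28. UBA7 had 1.07 in pool pair 2 and -0.34 in pool pair 3, so its high mean rests on part of the pools.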

How the data were processed

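Each deposited scanner file gives, per the file headers, a foreground mean and a local background median of the intensity of every spot in either dye. A table of processed values that the authors deposited for the same arrays was taken as log2 ratios and served as an alternative. The submitters' processing notes name limma; log base and steps are not given in the sources used. Its columns ran as lipid over control (correlation 0.980 to 0.991 over kept probes, column medians -0.03 to 0.02).

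Intensities were corrected with normexp (offset 50), normalized by loess within arrays and turned to log2 lipid over control, in limma 3.58.1 under R 4.3.3. Pool levels are log2 intensities after loess and Aquantile. Kept probes had, on at least 4 of 8 arrays, a channel brighter than a limit set 2 SD over the mean of the 757 negative control spots. A few bright negative controls raised the limit of array 1 on slide 87, where 20.5% of probes passed. On the other arrays 55.2% to 73.8% passed. Over the arrays, the median probe intensity lay between 230.1 and 323.8 for Cy3 and between 180.4 and 229.0 for Cy5, and the number of arrays limits the precision.

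The labels do not state which arrays share pools. Arrays of the same number were paired because their deviations from the means of their dye orientation correlated at 0.61 to 0.77, against -0.32 to -0.03 for other pairs. Deviations within an orientation cancel out, so the values below 0 for other pairs follow in part from this centring. The labels do not say whether the pools were fertilized separately, so p-values measure the spread between these pools. Averaging opposite dyes removes a dye effect that the slides share.

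The test was limma's moderated test (lmFit, then eBayes) of whether the mean of the 4 pool pairs differs from 0. It was two-sided, and p-values were adjusted by Benjamini-Hochberg over the 28844 kept probes. The procedure was tested on simulated data. The rule for naming takes the 10 members of smallest p per family, a list of well-known members, members not above background, and up to 6 genes of smallest p from each list of other pathway genes. Other names were chosen after their values were seen. Symbols are those of the platform annotation, in which 21790 probes have 1 symbol and 22004 none. All 78 member symbols matched RefSeq (assembly ARS-UCD2.0), 76 by current symbol. Members, roles and lists were chosen with earlier results of these data known. UBE2D3P was first counted as no E2 and moved after its values were seen. Family members such as UBE2V2, PSMD13 and PSME3 were not analysed here.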

Additional observations from a re-analysis of the deposited data

Results flagged for a closer look

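A single pool pair stood far from the other 3, relative to their whole range, in 5 of the 97 sets of 4 values searched (all measured members and medians of role groups). Chance sets 1 value apart in about 1 in 20 groups of 4. PSMA6, an alpha ring subunit, had 0.068 in pool pair 3, while the other pool pairs ran from -0.08 to -0.07. PSMD14, the deubiquitinating lid subunit, had -0.13 in pool pair 1, and its other values were 0.12 to 0.16. PSMD6, another lid subunit, had -0.14 in pool pair 4, with 0.23 to 0.24 elsewhere. UBE2G2, an E2 of the endoplasmic reticulum, had 0.55 in pool pair 1 and lay between -0.50 and -0.35 elsewhere. The median of the interferon-inducible members reached 0.21 in pool pair 2, with -0.02 to 0.00 elsewhere. The cumulus and granulosa list also had its highest median there, though its members differed, and its part was not tested.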

How the results depend on the processing

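No member passed the adjusted threshold under any alternative run. Over all probes, 7 passed with no replicate block, which counts the 8 arrays as independent. With the replicate block as a random effect and a dye term per slide, 0 passed in limma (2365 at an unadjusted p under 0.05, lowest adjusted p 0.0668). The unadjusted count, 1287 as analysed, ranged with the fit: it was 2492 with the arrays as independent and 2776 on slide 88 alone. It was 2314 when pool pair 1 was left out, 916 when pool pair 4 was, and 196 when the prior was robust with a trend. The UBE2 median of 0.02 was 0.073 over probes above the limit on all 8 arrays, 0.070 on slide 88 alone, -0.0017 with the mean of all kept probes of a gene, and -0.0048 to 0.070 with 1 pool pair left out, lowest without pool pair 1 and highest without pool pair 3. The difference between the families was -0.074 on slide 88 alone and -0.059 to 0.010 with 1 pool pair left out. The proteasome median then ran from 0.0053 to 0.016 and the interferon-inducible median from -0.016 to 0.081. Without PSMC3IP and UBE2CBP, an alternative chosen after seeing the data, the medians were 0.025 for proteasome genes and 0.029 for UBE2 genes.

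Of the 34 members with a mean of at least 0.1 in size, 28 kept their sign under every alternative that gave a value, and the exceptions were UBE2C, PSMC3, UBE2B, UBE2D4, UBE2M and UBE2T. The cause of the sign changes was not tested. The mean ratio changed sign with a normexp offset of 16 for UBE2A (0.00029). It did so without background correction for PSMA2 (-0.0026). It did so with median centring in place of loess for PSMA2 (-0.018) and PSME2 (0.031). It did so on slide 87 alone for PSMB7 (0.094), PSMD2 (0.099), PSMD14 (-0.0100), UBE2B (0.015), UBE2S (-0.031), UBE2D1 (0.044), UBE2D2 (-0.0011), UBE2E3 (-0.027), UBE2K (-0.028), UBE2V1 (-0.0037), UBE2Z (0.035) and UBE2CBP (0.051). It did so on slide 88 alone for PSMA2 (-0.14), PSMA4 (-0.084), PSMA8 (0.039), PSMB1 (-0.10), PSMB6 (-0.16), PSMB9 (-0.022), PSMB11 (0.054), PSMC6 (0.054), PSMD7 (0.053), PSMD5 (-0.075), PSMF1 (-0.0065), UBE2A (0.040), UBE2E2 (-0.044) and UBE2Q1 (-0.092). It did so in the authors' deposited values for PSME2 (0.0039) and UBE2E2 (-0.014). It did so with the mean of all kept probes of a gene for PSMA2 (-0.024), PSMB1 (-0.0025), PSMD2 (0.017), UBE2S (-0.10), UBE2D4 (-0.019) and UBE2K (-0.014). Leaving out 1 pool pair at a time changed the sign of 33 members. For proteasome genes the means then ran as follows: PSMA2 (-0.094 to 0.12), PSMA4 (-0.11 to 0.20), PSMA8 (-0.15 to 0.098), PSMB10 (-0.052 to 0.078), PSMB11 (-0.091 to 0.0026), PSMB6 (-0.11 to 0.27), PSMB7 (-0.11 to 0.036), PSMB9 (-0.045 to 0.10), PSMC2 (-0.13 to 0.0065), PSMC3 (-0.30 to 0.056), PSMC6 (-0.071 to 0.082), PSMD2 (-0.13 to 0.087), PSMD3 (-0.066 to 0.12), PSMD5 (-0.064 to 0.11), PSMD7 (-0.11 to 0.0093), PSME2 (-0.063 to 0.068), PSMF1 (-0.040 to 0.098). For UBE2 genes they were UBE2A (-0.060 to 0.030), UBE2B (-0.23 to 0.046), UBE2C (-0.080 to 0.46), UBE2CBP (-0.082 to 0.079), UBE2D1 (-0.39 to 0.070), UBE2D4 (-0.049 to 0.27), UBE2E2 (-0.42 to 0.25), UBE2J1 (-0.041 to 0.19), UBE2K (-0.058 to 0.098), UBE2M (-0.48 to 0.099), UBE2N (-0.21 to 0.053), UBE2Q1 (-0.068 to 0.11), UBE2S (-0.067 to 0.33), UBE2T (-0.32 to 6.6e-05), UBE2V1 (-0.018 to 0.14), UBE2Z (-0.15 to 0.082).

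The precision is limited by 4 pool pairs and by dim probes: PSMB8, UBE2L6 and UBE2O gave no ratio to report, and PSMD3 and UBE2J2 rest on few arrays above background in the control channel.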
